A study of Homo sapiens with 12 samples.

Results

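Mitochondrial ribosomal protein genes were taken as the rows of the deposited count table whose symbol starts with MRPL or MRPS followed by a digit, without a hyphen and without the ending of a pseudogene. The rule gave 78 of the 22545 genes in the table, 49 named MRPL and 29 named MRPS. All 78 passed the filter on low counts, as did 14207 genes in all. HaCaT, a spontaneously immortalised line of human keratinocytes, was the source of all 12 RNA sequencing libraries, which fall into 4 groups of 3. One group was untreated (labelled WT), and the others were given M5, given M5 and lefamulin (ML), or given M5 and retapamulin (MR). The genotype label was WT for every library, and the batch label was the same throughout. The name M5 is commonly used for a cocktail of inflammatory cytokines that induces features of psoriasis in keratinocyte culture. No source used here states its composition in these cells, nor any dose, duration or solvent. Mouse epidermis is mentioned in the extraction text, while the source label is HaCaT throughout.

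The mitochondrial ribosome, or mitoribosome, translates the few mRNAs encoded in mitochondrial DNA, which specify core subunits of the respiratory chain. Its rRNAs come from mitochondrial DNA, while all of its proteins are encoded in the nucleus, made in the cytosol and imported. Many of these proteins have a counterpart in the bacterial ribosome and others are specific to mitochondria. Lefamulin and retapamulin are pleuromutilin antibiotics, which bind the peptidyl transferase centre of the bacterial large ribosomal subunit, the site where peptide bonds form. Both carry the same tricyclic core and differ in the side chain. The mitoribosome descends from the bacterial one, so the question asked of these data was how the mRNAs of its proteins stood in cells given each compound.

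Of the 78 genes, 70 were matched to promoter windows of RefSeq (GRCh38.p14), each spanning 250 bases before the start of transcription and 50 after it. On either strand, CCGGAAG, the core recognised by GABPA and other ETS factors, was present in 30 of these 70 (42.9%), against 12.2% of all 27305 genes with a window and 16.5% of the 15843 coding genes. AAGATGGC, the YY1 motif, was present in 21 (30%, against 3.52% of all genes and 4.66% of coding genes). In 16 of those 21 a match lay after the start. The NRF1 motif, a pair of GCGC half-sites set 2 bases apart with a T before the second, was found in 9 (12.9%, against 6.98% and 9.67%), and CACGTG, the E-box bound by MYC, in 10 (14.3%, against 8.77% and 10.9%). A match is a string of letters and not a known site of binding. The windows below show the 100 bases before the start for members whose RNA was lower with retapamulin, 4 with the ETS core and 1 with the NRF1 motif, with the matches on either strand in capitals (CTTCCGG is the ETS core read on the opposite strand). They were chosen after the values were seen, as the largest falls with retapamulin among members with 1 start and a match in this stretch. MRPL40 lies at chr22:19432445-19432544 (plus strand), MRPL33 at chr2:27771619-27771718 (plus), MRPL20 at chr1:1407294-1407393 (minus), MRPS34 at chr16:1773135-1773234 (minus) and MRPL57 at chr13:21176558-21176657 (plus), all in GRCh38.p14.
MRPL40: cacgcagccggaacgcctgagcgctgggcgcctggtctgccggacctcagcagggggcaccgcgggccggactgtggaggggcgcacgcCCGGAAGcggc
MRPL33: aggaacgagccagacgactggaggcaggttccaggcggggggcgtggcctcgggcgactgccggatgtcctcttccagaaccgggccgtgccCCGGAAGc
MRPL20: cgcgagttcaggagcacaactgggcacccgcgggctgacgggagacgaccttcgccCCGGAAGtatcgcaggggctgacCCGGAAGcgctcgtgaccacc
MRPS34: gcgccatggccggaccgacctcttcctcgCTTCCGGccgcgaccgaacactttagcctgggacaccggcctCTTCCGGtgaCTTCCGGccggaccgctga
MRPL57: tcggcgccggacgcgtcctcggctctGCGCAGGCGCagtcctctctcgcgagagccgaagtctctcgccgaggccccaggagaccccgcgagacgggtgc
In these stretches MRPS34 carries the ETS core 3 times and MRPL20 carries it 2 times.

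The libraries held 35110519 to 37520999 counts each. Keratinocyte markers were present, with KRT5, a basal keratin, at group means of 1631, 637, 454 and 436 CPM (counts scaled to library size) in untreated, M5, lefamulin and retapamulin cells. KRT14, its usual partner, was low at 8.52, 3.43, 0.796 and 0.730 CPM. Of the 6 keratinocyte markers, KRT5, KRT14 and TP63 were called lower and SFN, CDH1 and DSP higher with each compound against M5. Their summed level was 3251 to 3288 CPM in untreated cells, 2411 to 2496 with M5, 3303 to 3359.6 with lefamulin and 3587 to 3628 with retapamulin, with SFN at means of 466, 528, 1266 and 1472 CPM, and its part in the results was not tested. Of 10 markers of other cell types, COL1A2, DCN, PTPRC, CD3E, PECAM1 and MLANA had at most 3 counts in any library. The summed level of the 10 markers was 20.7 to 24.1 CPM in untreated cells, 35.4 to 37.1 with M5, 59.8 to 61.0 with lefamulin and 86.7 to 97.1 with retapamulin, most of it from CD68 and COL1A1, and its part in the results was not tested. CPM values throughout are on library sizes scaled by TMM (trimmed mean of M values), and a gene is called where the adjusted p of edgeR's quasi-likelihood test is under 0.05 over all 14207 genes tested.

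Taken as 1 pool of RNA, the mitochondrial ribosomal protein genes were lower with both compounds. They held 0.554% ± 0.0153 (SD, n = 3) of all counts in untreated cells, 0.504% ± 0.00527 with M5, 0.370% ± 0.00156 with M5 and lefamulin, and 0.326% ± 0.00316 with M5 and retapamulin. The groups did not overlap. Divided by TMM-scaled library sizes, the same shares were 0.505%, 0.498%, 0.378% and 0.354%. On these sizes the untreated and M5 libraries overlapped, so the step from untreated cells to M5 depended on the scaling. Both compounds lay below M5 under either scaling, but the size of these steps depended on it too. The 51 members of the large subunit summed to 3417 ± 111, 3392 ± 9.99, 2590 ± 22.6 and 2425 ± 14.3 CPM in the 4 groups. The 26 members of the small subunit summed to 1609 ± 51.5, 1564 ± 9.28, 1156 ± 7.42 and 1088 ± 13.6 CPM. The ratio of large to small subunit was 2.12 in untreated cells and 2.17, 2.24 and 2.23 in the other groups. In bulk RNA, fewer cells of a type and less RNA per cell cannot be told apart.

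**Figure D1:**
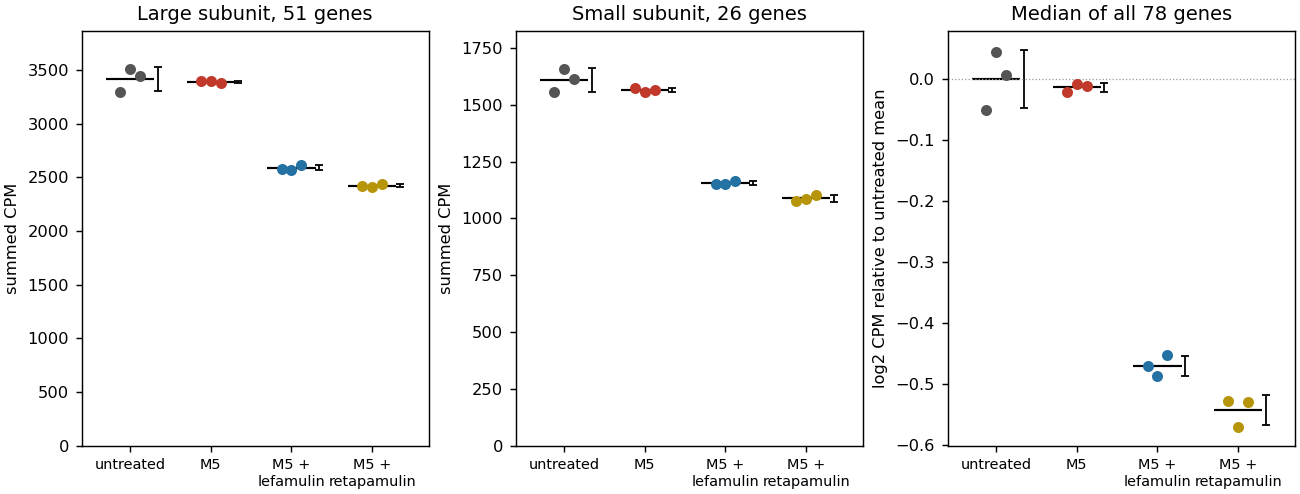
Summed CPM of the 51 large-subunit genes (left) and the 26 small-subunit genes (middle), and the median over the 78 genes of the log2 level relative to the untreated mean (right), in each of the 12 libraries. Points are libraries, lines are means and bars are SDs of 3 libraries; in all 3 panels every library with lefamulin or retapamulin lies below every untreated and M5 library.

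Single members differed widely in level. By mean FPKM (fragments scaled to gene length and library depth) over the 12 libraries, MRPL51, a protein specific to the mitochondrial large subunit, was highest at 131, followed by MRPL12 of the stalk at 103 and MRPL3 of the catalytic region at 96.6. The median member stood at 33.1 FPKM. MRPS24 was lowest at 0.320 FPKM with 4 to 13 counts per library, and its values say little; MRPS33 followed at 4.22 and MRPS28 at 5.16, with MRPL42 between them. RefSeq lists readthrough genes that join MRPS24 to URGCP and MRPS28 to TPD52, and no source used here states how reads of such overlaps were assigned. Pseudogenes named after members are listed by RefSeq for 42 of the 78, most of all for MRPS21 with 9 and MRPL57 with 8, so the counts of these members are less certain. Replicates were close, with a median coefficient of variation of 3.72% within a group. The group means of a member spanned 1.55-fold at the median, and at least 2-fold for 7 members.

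M5 alone left the family near its untreated level, with members called in both directions. Against untreated cells, edgeR called 11 members higher and 20 lower of 78, beside 28.3% of all genes called higher, 26.9% called lower and 55.2% called in either direction. The median log2 fold change was -0.01 over the members and -0.02 over all genes tested. The libraries of the 2 groups did not overlap for 34 members, beside 59.2% of all genes. Without untreated replicate 1 the number called higher was 6, and without M5 replicate 2 it was 7. On library totals alone the split was 4 higher and 42 lower, beside 2677 and 5820 of all 14207 genes. The median of all genes moved with it from -0.02 to -0.14, so the balance of directions in this comparison rests on the scaling.

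MRPL33, the counterpart of a small bacterial large-subunit protein, had the largest rise with M5. It stood at 28.2, 27.6 and 31.5 CPM in untreated cells and 47.5, 47.3 and 46.6 CPM with M5, a log2 fold change of 0.69 (SE 0.06, adjusted p = 5.04e-10, edgeR). All M5 libraries lay above all untreated ones. Smaller rises were called for MRPS17 of the small subunit (0.28), MRPL32 (0.26), MRPS30 (0.24), MRPL2 next to the catalytic centre (0.19) and MRPL46 of the central protuberance (0.18), as log2 fold changes. The calls for MRPL2 and MRPL46 were lost on library totals alone, and that for MRPL46 without untreated replicate 1 or 2 or M5 replicate 2. MRPL24, which lines the polypeptide exit tunnel, had the largest fall, from 40.4, 43.9 and 47.3 CPM in untreated cells to 32.5, 31.4 and 29.4 CPM with M5 (log2 fold change -0.50, SE 0.07). The untreated libraries were all above those with M5. Falls were also called for MRPS14 (-0.45), MRPL41 (-0.32), MRPL40 (-0.30), MRPS6 (-0.28) and MRPL48 (-0.27).

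With lefamulin added to M5, nearly all members were lower than with M5 alone. Of 78, edgeR called 70 lower and 3 higher, beside 34.3% of all genes called lower, 33.6% higher and 67.9% in either direction. The median log2 fold change of members was -0.41, a change of -24.8%, while the median of all genes was -0.00. The libraries of the 2 groups did not overlap for 73 members, beside 71.2% of all genes. A fall of over 30% was called for 26 members, and MRPL16 alone fell by more than 2-fold. Of all genes tested, called or not, 16% had a log2 fold change below -0.53 and 5% one below -1.05.

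With retapamulin added to M5, the picture was alike in direction. Here 69 of 78 members were called lower and 2 higher, beside 38% of all genes called lower, 34.1% higher and 72.1% in either direction. The median log2 fold change was -0.55, a change of -31.6%, against -0.05 over all genes. For 71 members the libraries of the groups did not overlap, beside 73.8% of all genes. A fall of over 30% was called for 41 members, and MRPL16 and MRPL40 fell by more than 2-fold. Of all genes tested, called or not, 23% had a log2 fold change below -0.52 and 9% one below -1.02. The M5 libraries are shared by both comparisons. Side by side, 68 members were called lower with each compound, beside 30.2% of all genes, MRPL49 and MRPS6 were called higher with each, beside 29%, and no member was called in opposite directions, beside 0.922%.

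**Figure D2:**
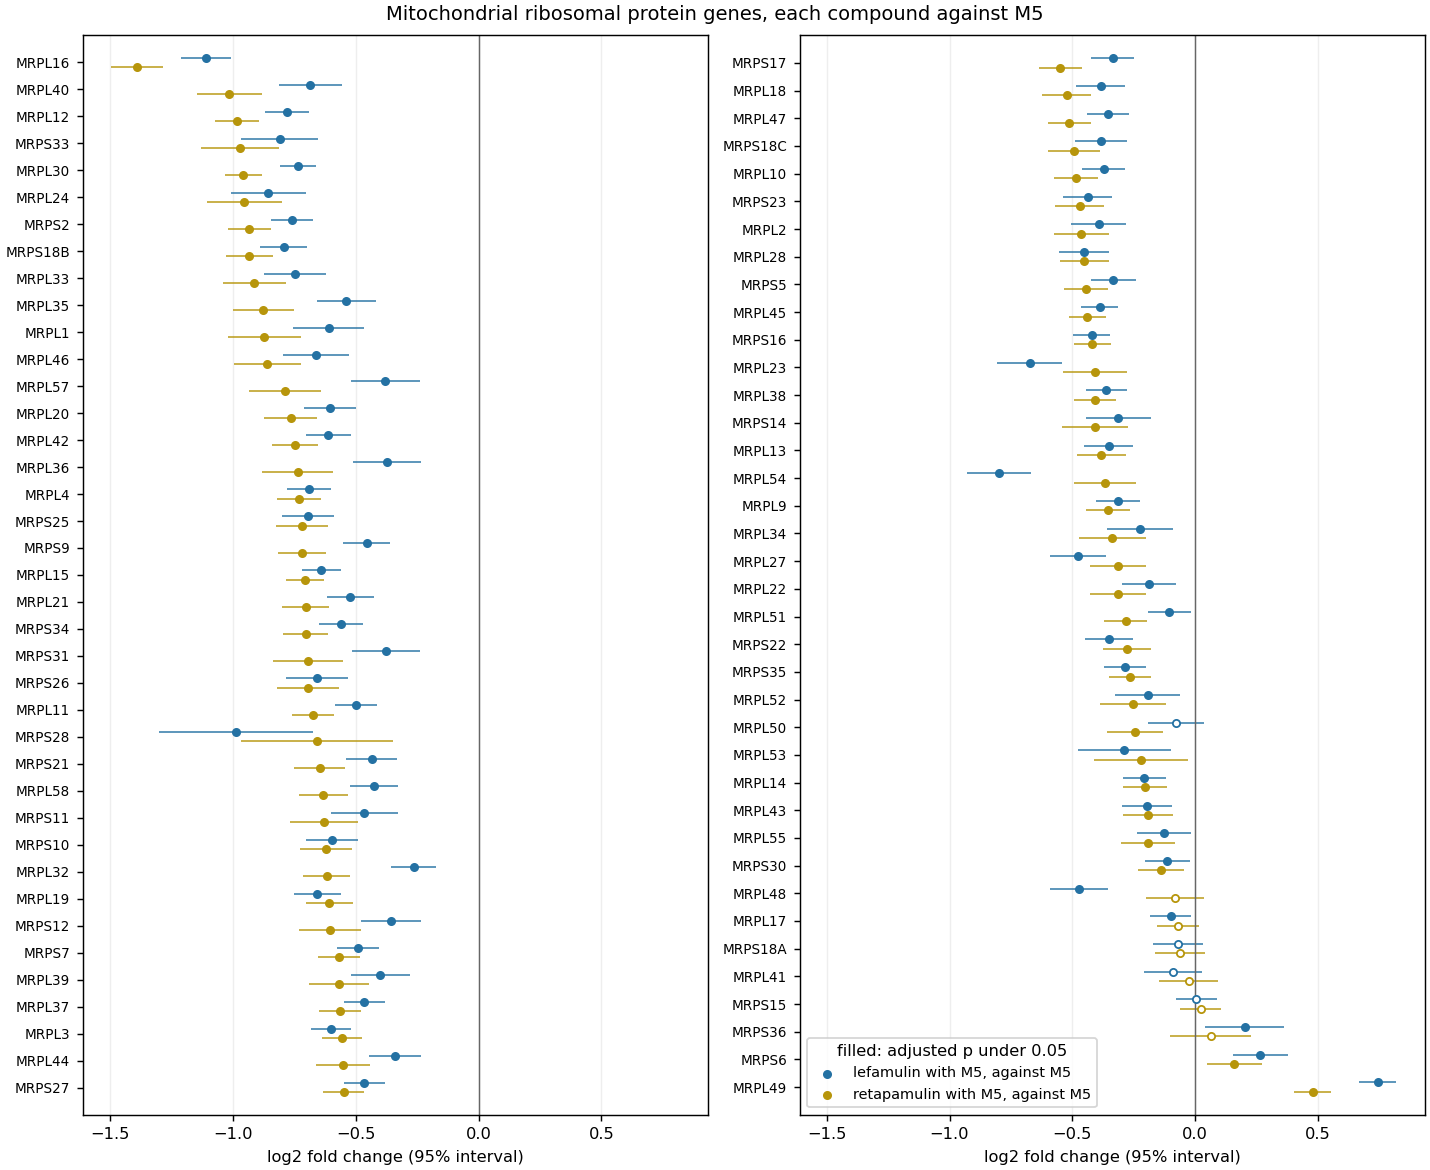
Log2 fold change of 77 members with lefamulin (blue) and retapamulin (ochre) against M5, with 95% intervals from the edgeR fit; filled points are called at an adjusted p under 0.05. MRPS24, at 4 to 13 counts per library, is left out for its wide interval; nearly all points lie left of 0, MRPL16 farthest, and MRPL49 and MRPS6 are filled points right of 0 with both compounds.

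**Figure D3:**
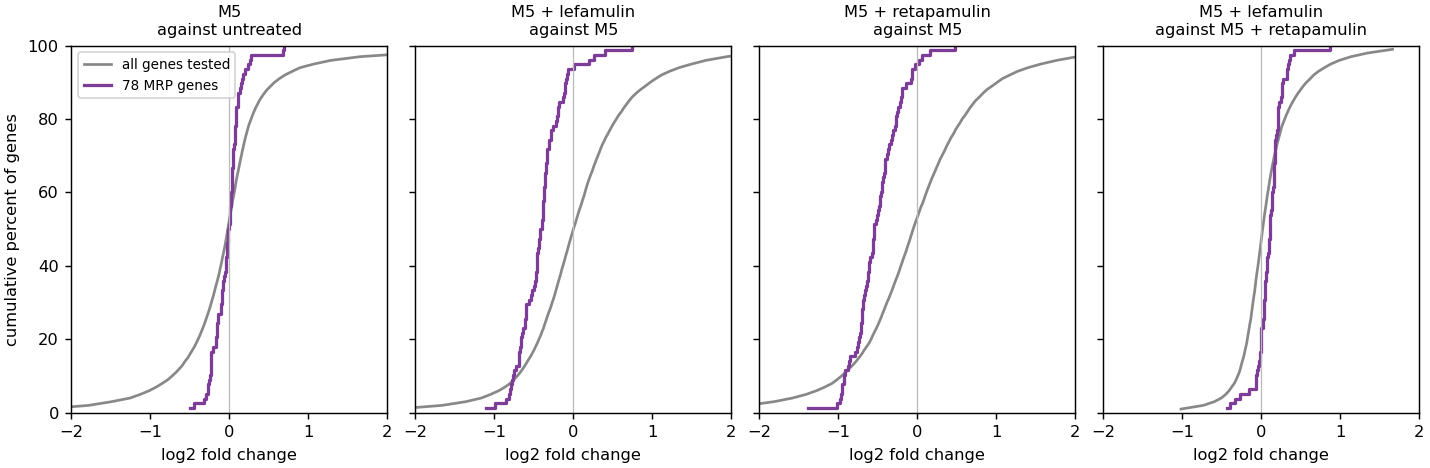
Cumulative percent of the 78 members (stepped line) and of all 14207 genes tested (smooth line) against log2 fold change, drawn from -2 to 2, for 4 comparisons named above the panels. With M5 alone the members centre on a median of -0.01; with lefamulin and retapamulin against M5 their line is shifted to the left of all genes, with medians of -0.41 and -0.55.

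All 4 listed genes for proteins at the peptidyl transferase centre, where pleuromutilins bind in bacteria, were called lower with both compounds. Beside this, 70 and 69 of the 78 members and 34.3% and 38% of all genes were called lower. The 4 genes had median log2 fold changes of -0.54 for lefamulin and -0.51 for retapamulin, beside -0.41 and -0.55 over all members. MRPL16, which helps position tRNA at that centre, had the largest fall of all 78 members. Its CPM values were 53.5, 58.5 and 58.7 in untreated cells, 58.95, 56.6 and 57.4 with M5, 27.1, 25.3 and 27.8 with lefamulin and 21.99, 21.5 and 22.5 with retapamulin. The untreated and M5 libraries overlap, and both compounds lie far below them. The log2 fold changes against M5 were -1.11 (SE 0.05, adjusted p = 9.15e-16) and -1.39 (SE 0.05, adjusted p = 1.25e-17, edgeR). MRPL3, which reaches into the same centre from the body of the subunit, stood at 191, 192 and 205 CPM with M5, 128, 128 and 132 with lefamulin and 137, 138 and 125 with retapamulin. Its falls were -0.60 and -0.56, and the compounds' libraries overlap. MRPL2 fell by less (log2 fold changes of -0.39 and -0.46), as did MRPL27, whose bacterial counterpart extends into the centre, at -0.48 and -0.32.

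Along the polypeptide exit tunnel, through which the new chain leaves, all 6 listed genes were called lower with both compounds. Beside this, 70 and 69 of the 78 members and 34.3% and 38% of all genes were called lower. The 6 genes had medians of -0.53 and -0.48, beside -0.41 and -0.55 over all members. MRPL24 fell furthest among the 6. From 31.1 ± 1.59 CPM with M5 (SD, n = 3) it stood at 16.6, 17.8 and 17.2 CPM with lefamulin and 14.1, 17.7 and 16.3 CPM with retapamulin, log2 fold changes of -0.86 and -0.95. MRPL24 was thus lower in each step from untreated cells to M5 and from M5 to the compounds. MRPL4 and MRPL23 fell by 0.69 and 0.67 on the log2 scale with lefamulin, and by 0.73 and 0.41 with retapamulin. MRPL45, which anchors the tunnel exit at the inner membrane, fell by 0.39 and 0.44, and MRPL47 by 0.36 and 0.51. MRPL22 had the smallest falls of the 6, by 0.19 and 0.31.

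At the stalk, the flexible arm that recruits translation factors, all 5 genes were called lower with each compound. Beside this, 70 and 69 of the 78 members and 34.3% and 38% of all genes were called lower. MRPL12, the stalk protein also known to bind mitochondrial RNA polymerase, stood at 126, 138 and 128 CPM in untreated cells, 141, 130.2 and 130.3 with M5, 78.4, 75.9 and 79.9 with lefamulin and 69.4, 66.2 and 67.5 with retapamulin. Untreated and M5 libraries overlap, and the compounds lie below both. The log2 fold changes against M5 were -0.78 (SE 0.04) and -0.98 (SE 0.04). MRPL54 stood at 34.1, 34.4 and 33.6 CPM with M5, 19.9, 17.95 and 20.9 with lefamulin and 25.8, 28.4 and 25.1 with retapamulin, so that its libraries with retapamulin lie between those of the other two groups.

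In the central protuberance, which contacts the small subunit and the tRNAs, all 5 genes were called lower with lefamulin and 4 with retapamulin. The counts over all 78 members were 70 and 69, and the shares of all genes were 34.3% and 38%. MRPL40 stood at 36.1, 37.8 and 39.8 CPM in untreated cells, 30.7, 29.8 and 31.8 with M5, 18.99, 18.5 and 19.99 with lefamulin and 14.7, 14.5 and 16.5 with retapamulin. Its 4 groups do not overlap, and each step was called, with log2 fold changes of -0.30 for M5, -0.68 for lefamulin and -1.01 for retapamulin. MRPL46 fell by 0.66 and 0.86. MRPL48 was the exception with retapamulin: at 36.5, 39.7 and 37.96 CPM with M5, 26.7, 27.8 and 27.7 with lefamulin and 33.02, 36.9 and 37.9 with retapamulin, the fall of 0.47 was called and the difference of -0.08 was not (95% interval -0.20 to 0.04). On library totals alone the difference with retapamulin was called too.

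Across the whole large subunit, the genes of the 29 proteins listed with a bacterial counterpart were all called lower with lefamulin. Of these, 28 were called lower with retapamulin, the exception being MRPL17 (-0.07). Its call with lefamulin (-0.10) was lost without M5 replicate 1 or 2 or lefamulin replicate 1 or 2, and on library totals alone it was called lower with retapamulin. Their median log2 fold changes were -0.50 and -0.61. Of the 22 listed as specific to mitochondria, among which MRPL55 was counted, 18 were called lower and 1 higher with each compound. The medians of the 22 were -0.35 and -0.32. Of all 78 members 70 and 69 were called lower. The shares of all genes were 34.3% lower and 33.6% higher with lefamulin, and 38% and 34.1% with retapamulin. MRPL30 and MRPL33 were among the larger falls. MRPL30 fell by 0.73 and 0.96. MRPL33, raised by M5, fell by 0.75 and 0.91, to 26.6, 30.3 and 27.4 CPM with lefamulin and 24.7, 27.1 and 23.4 CPM with retapamulin, where the lefamulin libraries overlap the untreated ones and those with retapamulin lie below them. MRPL58, a peptidyl-tRNA hydrolase that became part of the subunit and can rescue stalled ribosomes, fell by 0.43 and 0.63. MRPS30 and MRPS18A carry small-subunit names but sit in the large subunit. MRPS30 fell by 0.11 with lefamulin, a call lost without M5 replicate 1 or lefamulin replicate 1 or 2, and by 0.14 with retapamulin, a call lost in DESeq2 (adjusted p = 0.0528). MRPS18A was not called against M5 (-0.07 and -0.06), although on library totals alone it was called lower with both compounds.

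The small subunit holds the mRNA and reads the codon. Genes of its 10 proteins listed as specific to mitochondria were all called lower with both compounds, with medians of -0.51 and -0.69. Of the 16 listed with a bacterial counterpart, 13 were called lower and 1 higher with each compound, with medians of -0.40 and -0.56. The shares of all genes were 34.3% lower and 33.6% higher with lefamulin, and 38% and 34.1% with retapamulin. MRPS33 stood at 21.6, 23.2 and 23.7 CPM with M5, 13.3, 13.4 and 12.4 with lefamulin and 10.5, 11.6 and 12.9 with retapamulin. The compounds lie below M5 and overlap each other, with log2 fold changes of -0.81 and -0.97. MRPS18B fell by 0.79 and 0.93, and MRPS2 by 0.76 and 0.93. MRPS28, at 86 to 229 counts per library, fell by 0.99 (SE 0.15) and 0.66 (SE 0.15). MRPS12, which lies at the decoding centre, fell by 0.36 and 0.60, and MRPS18C by 0.39 and 0.49.

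MRPL49, a large-subunit protein specific to mitochondria, had the largest rise. Its levels were 112, 121 and 120.1 CPM in untreated cells, 108, 106 and 106 with M5, 180.4, 177 and 179 with lefamulin and 151, 146 and 149 with retapamulin. The 4 groups do not overlap: M5 is lowest and lefamulin highest. The log2 fold changes against M5 were 0.74 (SE 0.04, adjusted p = 4.01e-15) and 0.48 (SE 0.04, adjusted p = 1.76e-11, edgeR). MRPS6, the counterpart of a bacterial small-subunit protein of the platform, stood at 32.7, 34.3 and 32.5 CPM in untreated cells, 27.9, 25.8 and 28.4 with M5, 32.2, 34.3 and 32.2 with lefamulin and 29.8, 31.6 and 30.2 with retapamulin. With lefamulin its libraries overlap the untreated ones. Its rise of 0.16 with retapamulin was lost without M5 replicate 2 or retapamulin replicate 2, and also on library totals alone.

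Some members gave no call. MRPS15, the small-subunit counterpart of a bacterial rRNA-binding protein, stood at 71.3, 78.5 and 79.1 CPM in untreated cells, 80.7, 79.9 and 80.9 with M5, 79.5, 82.4 and 80.2 with lefamulin and 82.3, 80.9 and 81.97 with retapamulin. Its differences from M5 were 0.004 (95% interval -0.08 to 0.09) and 0.02 (-0.06 to 0.11). On library totals alone MRPS15 was called lower with retapamulin, at -0.11. MRPL41 was not called with either compound (-0.09 and -0.03), although it was called lower with both on library totals alone, nor was MRPL50 with lefamulin (-0.08), which library totals alone also called lower. MRPL50 fell by 0.24 with retapamulin. MRPS24 was at too few counts for a statement. MRPS36 is now named KGD4 and belongs to the 2-oxoglutarate dehydrogenase complex of the citric acid cycle, not to the mitoribosome. It stood at 25.5, 25.4 and 29.1 CPM with M5 and 32.1, 30.9 and 28.9 CPM with lefamulin, ranges that overlap. Its rise of 0.20 was called (adjusted p = 0.0275, edgeR) but was lost without M5 replicate 1 or 2 or lefamulin replicate 1 or 2, as on library totals alone.

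**Figure D4:**
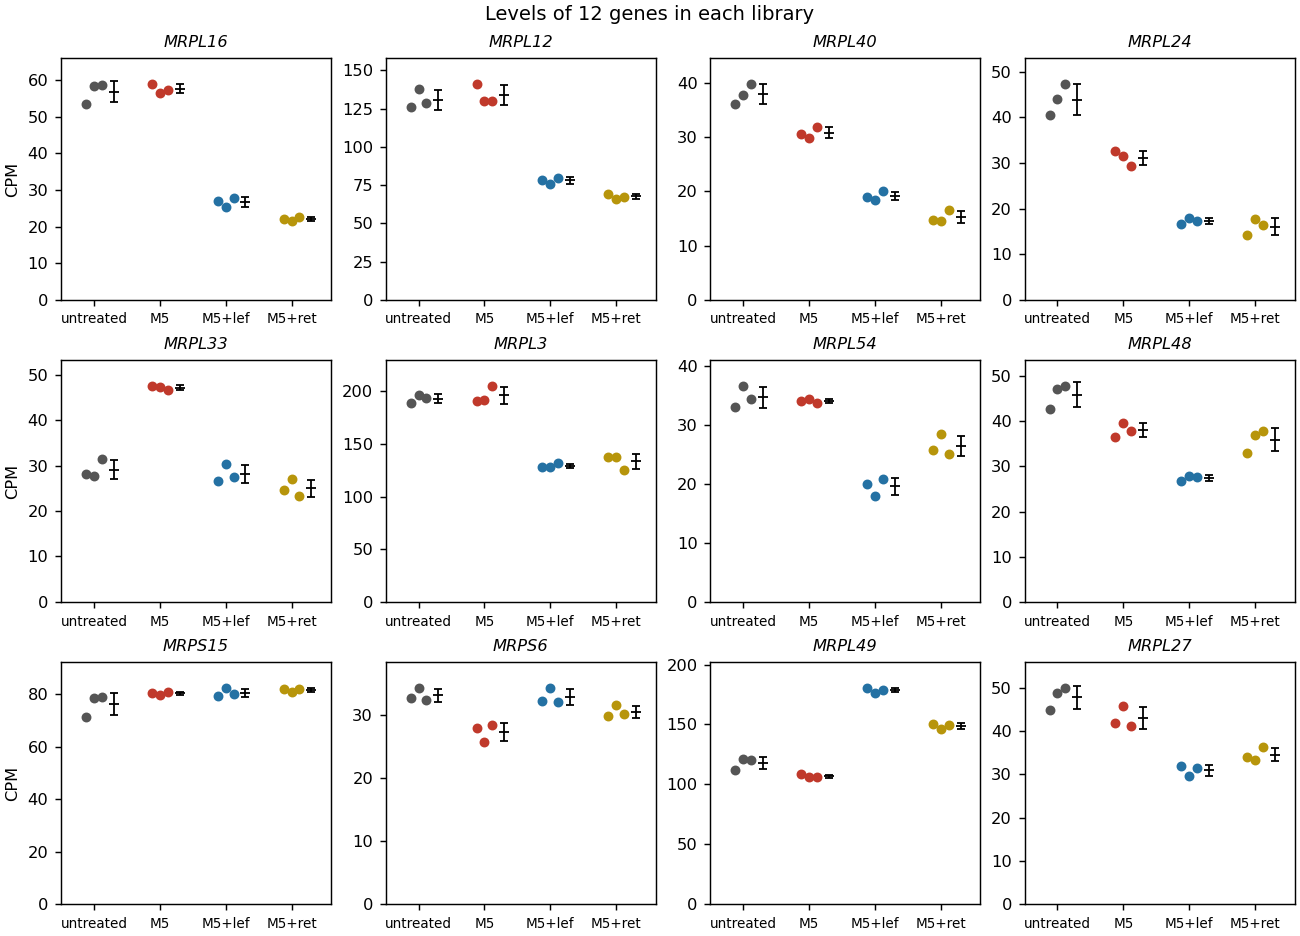
CPM of 12 members in each library, untreated, with M5, with M5 and lefamulin (lef), and with M5 and retapamulin (ret); points are libraries, lines are means, bars are SDs of 3 libraries and each axis starts at 0. MRPL16, MRPL12, MRPL40 and MRPL24 are lower with both compounds, MRPL54 and MRPL48 are lowest with lefamulin, MRPS15 stays near 80 CPM in every group given M5, and MRPL49 is highest with lefamulin.

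The compounds were also set against each other. Since no source used here states a dose or duration for either, the compound and its exposure cannot be told apart. Between lefamulin and retapamulin, edgeR called 33 members higher with lefamulin and 4 lower, beside 18.8% of all genes called higher, 21.2% lower and 40% in either direction. The median log2 difference was 0.11, against 0.01 over all genes, and 47 members did not overlap, beside 52% of all genes. The count depended on scaling. With RLE size factors 22 members were called higher and 4 lower, and on library totals alone 55 higher and 3 lower. Of all 14207 genes, 2166 were called higher and 3712 lower with RLE size factors, and 4434 and 1663 on library totals alone. Under the 2 settings the median of all genes moved to -0.02 and 0.10.

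The members that retapamulin lowered further than lefamulin were led by MRPL57, MRPL36, MRPL32, MRPL35 and MRPL40, with log2 differences of 0.41, 0.36, 0.35, 0.34 and 0.33. MRPL32, MRPL35 and MRPL36 are counterparts of small bacterial large-subunit proteins. MRPL32 stood at 62.6, 65.3 and 60.7 CPM with M5, 51.1, 51.9 and 54.03 with lefamulin and 42.2, 41.3 and 39.4 with retapamulin, and MRPL57 stood at 26.6, 25.8 and 28.8, 21.97, 20.2 and 20.3 and 15.4, 14.7 and 16.95 CPM. In the opposite direction, MRPL54 (difference -0.43, SE 0.06), MRPL48 (-0.39, SE 0.06), MRPL23 (-0.27) and MRPL27 (-0.16) were lower with lefamulin. The call for MRPL27 was lost on library totals alone and without lefamulin replicate 2 or retapamulin replicate 3, and that for MRPL23 in the fits of log2 FPKM. For MRPL3 the difference was -0.04 with a 95% interval of -0.13 to 0.04, and for MRPS15 it was -0.02 (-0.10 to 0.07).

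Set against untreated cells, the family was again lower with each compound. With M5 and lefamulin 67 members were called lower and 4 higher, beside 37.1% and 36.9% of all genes and 74% in either direction, with a median of -0.45. The groups did not overlap for 71 members, beside 76.1% of all genes. With M5 and retapamulin 71 were called lower and 2 higher, beside 40.9% and 37.6% and 78.5% in either direction, with a median of -0.55. Here 75 members did not overlap, beside 79.2% of all genes. These comparisons share the untreated libraries. MRPL24 fell furthest, by 1.35 and 1.45 on the log2 scale, followed with retapamulin by MRPL16 (-1.37) and MRPL40 (-1.31). MRPL49 was higher with both (0.60 and 0.34). MRPS15 was called higher with retapamulin (0.10), but on library totals alone its difference turned to -0.16, and the call was lost without untreated replicate 1 or retapamulin replicate 1 or 3. With lefamulin MRPS36, MRPS30 and MRPS24 were also called higher than in untreated cells, of which MRPS24, at 4 to 13 counts per library, lost its call without any 1 of the 12 libraries. MRPS30 lost its call without untreated replicate 1 or lefamulin replicate 3, and MRPS36 without untreated replicate 3. On library totals alone neither was called, and the MRPS30 difference turned to -0.042. In both fits of log2 FPKM neither was called. By group means, the order untreated, M5, lefamulin, retapamulin from high to low held for 28 members, and the order M5, untreated, lefamulin, retapamulin held for 27. Neighbours in these orders often do not differ beyond their spread: 47 members gave no call between M5 and untreated cells, and 41 none between the compounds.

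Over the 78 members, the size of a fall had little relation to the level of the gene. Spearman's rho across members between the log2 fold change and mean CPM was 0.04 with lefamulin and 0.09 with retapamulin, and against gene length -0.09 and -0.07. These are descriptions across genes that share the same libraries. By promoter motif, the median with retapamulin was -0.52 for the 30 members with the ETS core and -0.55 for the 40 without, and with lefamulin -0.44 and -0.36. The 9 members with the NRF1 motif had medians of -0.38 with lefamulin and -0.72 with retapamulin, beside -0.42 and -0.55 for the 61 without. For the 21 with the YY1 motif they were -0.36 and -0.51, beside -0.44 and -0.55 for the 49 without, and for the 10 with the E-box -0.38 and -0.47, beside -0.42 and -0.55 for the 60 without.

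Other genes of mitochondrial translation, from lists chosen by their known roles, were mostly called lower too. The counts below stand beside 34.3% of all genes called lower and 33.6% higher with lefamulin, and 38% and 34.1% with retapamulin. Of the 5 mitoribosomal proteins with other names, PTCD3, CHCHD1, AURKAIP1 and GADD45GIP1 were called lower with both compounds, and DAP3, a small-subunit GTPase, was not (-0.01 and -0.05). On library totals alone DAP3 was called lower with retapamulin. The CHCHD1 call with lefamulin (-0.13) was lost without M5 replicate 1 or 3 or lefamulin replicate 1 or 2. Among 26 mitoribosome assembly factors, 18 were called lower and 4 higher with lefamulin, and 19 and 2 with retapamulin. The rRNA methyltransferases MRM1 and MRM2 fell by 0.65 and 0.78 with lefamulin and by 1.02 and 0.87 with retapamulin, whereas NSUN4, another rRNA methyltransferase, rose by 0.43 and 0.38. The others called higher were GTPBP6, MPV17L2 and MTG1 with lefamulin (1.65, 0.29 and 0.15) and YBEY with retapamulin (0.30). The GTPBP6 call was lost in the fits of log2 FPKM and in DESeq2, the YBEY call without M5 replicate 1 or on library totals alone, and the MTG1 call without M5 replicate 2 or 3 or lefamulin replicate 1 or on library totals alone. RBFA, which matures the small subunit, fell by 0.71 and 1.02, and MTERF3 by 0.88 and 0.91.

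Of 16 mitochondrial translation factors, 14 (87.5%) were called lower and 2 higher with each compound, beside 34.3% and 38% of all genes called lower. The elongation factor TUFM stood at 276, 255 and 254 CPM with M5, 186, 179 and 179.7 with lefamulin and 182, 176 and 179.8 with retapamulin. Both compounds lie below M5 and overlap each other. LRPPRC, which binds mitochondrial mRNAs, fell by 0.65 and 0.64, and the recycling factor MRRF by 0.71 and 0.69. The 2 called higher were the release factors MTRF1L (0.33 and 0.34) and MTRF1 (0.22 and 0.23). Both MTRF1 calls were lost without M5 replicate 3 or on library totals alone, that with lefamulin also without lefamulin replicate 1 or 2, and that with retapamulin without retapamulin replicate 3. Of 17 mitochondrial tRNA synthetases, which charge tRNAs in the organelle, 12 (70.6%) were called lower and 1 higher with lefamulin, and 15 (88.2%) and 2 with retapamulin, beside the same shares of all genes. MARS2 fell furthest, from 21.3, 20.4 and 20.02 CPM with M5 to 8.79, 9.32 and 8.89 with lefamulin and 8.14, 8.73 and 8.19 with retapamulin. RARS2 rose with both (0.28 and 0.30), and CARS2 with retapamulin (0.43).

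Regulators showed a mixed picture. TFAM, which packages mitochondrial DNA and helps to start its transcription, fell by 0.46 with lefamulin and 0.73 with retapamulin. The RNA polymerase POLRMT fell by 0.44 and 0.41. Both come from a list of genes for mitochondrial transcription and do not stand for all of it. From the same list, MTERF1 fell by 0.52 with retapamulin. TFB2M was called higher than in untreated cells with M5 (0.19) and with M5 and lefamulin (0.22). Of 8 tested activators of nuclear genes for mitochondria, 6 were called lower and 1 higher with lefamulin, beside 34.3% and 33.6% of all genes. With retapamulin 4 (50%) were called lower and 2 (25%) higher, beside 38% and 34.1% of all genes, which is close for a list of 8. PPARGC1B, a coactivator of mitochondrial biogenesis, stood at 13.8, 16.3 and 14.7 CPM with M5, 4.56, 4.91 and 3.79 with lefamulin and 3.92, 4.31 and 4.11 with retapamulin, log2 fold changes of -1.76 and -1.86. It was the largest change of the list. NRF1 fell by 0.22 with lefamulin and was not called with retapamulin (-0.09), while YY1 fell by 0.25 and 0.17 and GABPA by 0.18 and 0.15, of which the second call was lost with RLE size factors and without M5 replicate 3 or retapamulin replicate 1. MYC was called higher by 0.13 and 0.15, calls lost on library totals alone and, with lefamulin, without lefamulin replicate 3. The nuclear receptor ESRRA was called higher with retapamulin (0.12), a difference that turned to -0.01 on library totals alone and lost its call without M5 replicate 3 or retapamulin replicate 3. Of 17 genes of the mitochondrial stress response, 11 were called higher and 5 lower with lefamulin, and 12 and 5 with retapamulin, beside 33.6% and 34.1% of all genes called higher. With M5 alone, against untreated cells, 12 of the 17 were called higher already and 3 lower, beside 28.3% and 26.9% of all genes. The factor ATF4 rose by 0.84 and 1.04, its target TRIB3 by 1.60 and 1.92, and the asparagine synthetase ASNS, at a mean of 0.855 CPM with M5, by 1.64 and 1.86. The matrix chaperones HSPD1 and HSPE1 went the other way, by -0.97 and -0.73 with lefamulin and -0.89 and -0.83 with retapamulin. The mitochondrial rRNAs were not matched to rows of the table and are not analysed here.

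**Figure D5:**
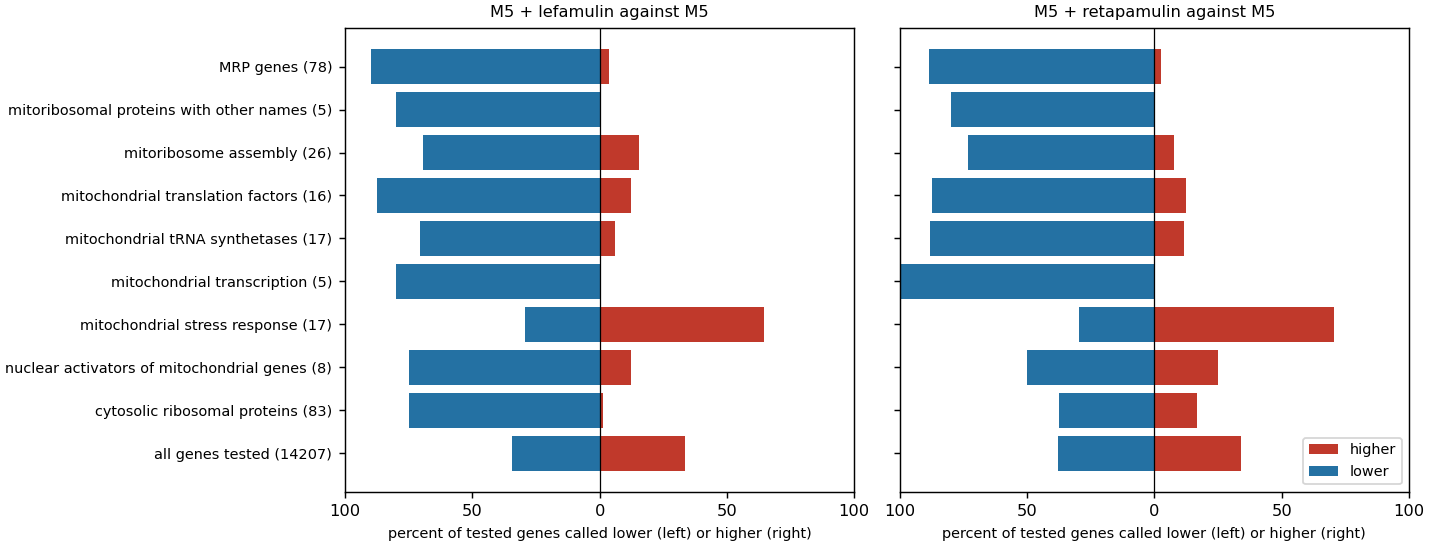
Percent of the tested genes of each list called lower (left of 0) or higher (right of 0) with lefamulin (left panel) and retapamulin (right panel) against M5, with the number tested in parentheses; MRP genes are the 78 mitochondrial ribosomal protein genes, and the bottom bars are all 14207 genes. Of the MRP genes 70 and 69 are called lower, beside 34.3% and 38% of all genes, while the stress response list leans to higher and the list of cytosolic ribosomal proteins, chosen after the values were seen, has 62 and 31 of 83 genes called lower.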

How the data were processed

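RNA from 12 libraries of HaCaT cells was sequenced after library preparation with a VAHTS Universal V6 kit, per the labels' protocols. The authors deposited raw read counts per gene and, beside them, FPKM values, as the columns are named per the file headers. HISAT2 and HTSeq are named in the submitters' processing notes, without versions. Build and strand setting were not given in the sources used here. For all 20422 genes that allowed the check, each deposited FPKM value matched a count scaled by gene length and library total, with a coefficient of variation under 0.001.

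The counts were tested with edgeR 4.0.16 in R 4.3.3 (filterByExpr, TMM, quasi-likelihood test, 1 mean per group over all 12 libraries, Benjamini-Hochberg adjustment over 14207 genes, threshold 0.05). Fold changes are edgeR's fitted log2 values. The test was run on simulated counts in which a small set of genes changed in 1 group, as many up as down. Most genes were called against M5 in the data, so that run cannot speak to the scaling. Libraries held about equal depth, and no 2 libraries of a group agreed within sampling noise (chi-square per degree of freedom of 2.72 to 8.37). Nothing in the labels says that replicates came from separate cultures, so p-values measure only the spread between these samples, which may be technical. Settings tried besides were library totals alone, RLE size factors, no filter, DESeq2 1.42.0, fits of the 2 compared groups, the replicate number as a block, limma 3.58.1 on log2(FPKM + 1) and log2(FPKM + 0.1), and leaving out each library in turn.

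The members and lists were chosen with earlier results of these data known. Named members were the called ones without overlap with the largest changes in each comparison (6 and 6 in each direction against M5 and for M5 against untreated cells, 5 and 5 between compounds, 3 and 3 against untreated cells), those at the peptidyl transferase centre and exit tunnel, MRPL12, MRPS12, MRPL58, MRPS30, MRPS18A, MRPS18B, MRPS18C and MRPS36, and up to 2 pathway genes per list and direction. Other genes named were chosen after their values were seen, among them NRF1, YY1, GABPA, ATF4, TUFM, DAP3, MRPS15, MRPL17, MRPL41, MRPL50 and the members whose promoters are shown.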

Additional observations from a re-analysis of the deposited data

How the results depend on the processing

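The falls with both compounds held under the alternatives run: 64 members with lefamulin and 67 with retapamulin were called lower than with M5 in all 21 settings. In the main fit 34.3% and 38% of all genes were called lower. How many of all genes were called lower in all 21 settings was not counted. Scaling moved other counts, and the counts over all genes moved as well. With library totals alone, M5 against untreated cells had 2677 of all 14207 genes called higher and 5820 lower. For lefamulin and retapamulin against M5 these were 4385 and 5396, and 3942 and 6586. Between the compounds they were 4434 and 1663. Against untreated cells they were 4204 and 6677 with lefamulin, and 3893 and 7657 with retapamulin. On library totals alone, in limma on log2(FPKM + 1) and in limma on log2(FPKM + 0.1), in that order, M5 against untreated cells had 4, 4 and 4 members called higher, 42, 44 and 44 lower, and medians of -0.13, -0.12 and -0.13; lefamulin against M5 had medians of -0.46, -0.43 and -0.45; retapamulin against M5 had 1, 1 and 1 called higher and medians of -0.68, -0.64 and -0.68; lefamulin against retapamulin had 55, 53 and 54 higher, 3, 2 and 2 lower, and medians of 0.20, 0.19 and 0.20; lefamulin against untreated cells had 1, 2 and 2 higher and medians of -0.61, -0.58 and -0.61; and retapamulin against untreated cells had 1, 1 and 1 higher and medians of -0.81, -0.78 and -0.80. On library totals the median of all genes moved from -0.02 to -0.14 for M5 against untreated cells, from -0.05 to -0.19 for retapamulin against M5, from 0.01 to 0.10 between the compounds, and to -0.18 and -0.31 for lefamulin and retapamulin against untreated cells; the cause was not tested. With RLE size factors and with DESeq2 the medians were -0.51 and -0.51 for retapamulin against M5, 0.075 and 0.071 between the compounds, and -0.51 and -0.51 for retapamulin against untreated cells; the fit of the 2 compared groups gave -0.54 for retapamulin against M5. With TMM-scaled sizes the summed shares were 0.505%, 0.498%, 0.378% and 0.354%.

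In the same order of 3 settings the difference of M5 from untreated cells turned to -0.10, -0.10 and -0.10 for MRPL3, -0.0037, -0.0034 and -0.0034 for MRPL4 and -0.11, -0.11 and -0.11 for MRPL45, and to -0.10 and -0.10 for MRPL16 in the FPKM fits. With retapamulin against M5 it turned to -0.013, -0.011 and -0.011 for ESRRA and -0.11, -0.11 and -0.11 for MRPS15. Against untreated cells it turned with lefamulin to -0.042, -0.041 and -0.042 for MRPS30 and -0.0089, -0.0090 and -0.0092 for DAP3, and with retapamulin to -0.16, -0.15 and -0.15 for MRPS15, -0.16, -0.15 and -0.16 for MRPS30, -0.14, -0.13 and -0.14 for DAP3, -0.042, -0.036 and -0.040 for RARS2 and -0.071, -0.067 and -0.071 for CARS2. The cause was not tested.

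Leaving out 1 library at a time gave 6 to 12 members higher and 18 to 22 lower for M5 against untreated cells (medians -0.04 to 0.01), 2 to 3 and 65 to 70 for lefamulin against M5 (-0.43 to -0.41), 1 to 2 and 68 to 69 for retapamulin against M5 (-0.55 to -0.54), 25 to 36 and 3 to 4 between the compounds (0.091 to 0.116), 2 to 4 and 64 to 67 for lefamulin against untreated cells (-0.49 to -0.39) and 1 to 4 and 69 to 71 for retapamulin against untreated cells (-0.58 to -0.51). The count of 1 for retapamulin against M5 came without M5 replicate 2 or retapamulin replicate 2; the 2 for lefamulin against untreated cells without untreated replicate 1 or lefamulin replicate 3; and for retapamulin against untreated cells the 1 without untreated replicate 1 or retapamulin replicate 1 or 3, and the 4 without untreated replicate 2.

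Same-numbered libraries deviated together with r of -0.144 to 0.184 and over 0.1 in 3 of 18 pairs, so the numbers were not taken as pairs. With the replicate number as a block, members called higher and lower were 11 and 21 for M5 against untreated cells, 3 and 70 for lefamulin against M5, 2 and 69 for retapamulin against M5, 32 and 4 between the compounds, 3 and 67 for lefamulin and 2 and 70 for retapamulin against untreated cells; under the block the members' calls lost were MRPL10 and MRPS5 between the compounds, MRPS24 for lefamulin and MRPS6 for retapamulin against untreated cells, and that for CHCHD1 in M5 against untreated cells was lost too, while MRPL58 gained one there. Depth limits MRPS24 most among the members, at 4 to 13 counts per library. MRPS28 came next, with a lowest count of 86.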

Other observations

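The ribosome of the cytosol was looked at after the mitochondrial values were seen, as the 83 tested genes with a cytosolic ribosomal protein symbol. With lefamulin against M5, edgeR called 62 of them (74.7%) lower and 1 higher, beside 34.3% and 33.6% of all genes tested, with a median log2 fold change of -0.14. With retapamulin 31 were called lower and 14 higher, with a median of -0.03 that was 0.00 with RLE size factors and -0.17 on library totals alone. The share called lower with retapamulin was 37.3%, beside 38% of all genes tested.

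The 13 mRNAs that the mitoribosome translates were also taken after the values were seen. With lefamulin 5 were called higher and 3 lower, and with retapamulin 5 and 4. These are 38.5% and 23.1%, and 38.5% and 30.8%, near the 33.6% and 34.3%, and 34.1% and 38%, of all genes tested. None was called in M5 against untreated cells, where edgeR gave 0 of 13 at an unadjusted p under 0.05, DESeq2 called 0 and the fit on library totals alone called 6 lower. The complex I subunit ND3 stood at 597, 725 and 661 CPM with M5, 1246, 1359 and 1502 with lefamulin and 1188, 1453 and 1343 with retapamulin. The M5 libraries lie below those of both compounds. ND2 rose by 0.62 and 0.57 on the log2 scale, and COX3 of complex IV by 0.46 and 0.47. ND5 fell by 0.43 and 0.40, and ND6, the mRNA of the opposite strand, by 0.28 and 0.54. The ND6 call with lefamulin was lost without M5 replicate 3 or lefamulin replicate 1 or 3. No source used here states the strand setting, and neighbouring mitochondrial genes overlap, so these counts are uncertain.

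Among rows left out for a hyphen in the symbol, MRPL20-AS1, antisense to MRPL20, stood at 17.3, 16.2 and 16.97 CPM in untreated cells, 13.4, 11.5 and 11.3 with M5, 9.18, 10.02 and 9.09 with lefamulin and 8.65, 9.56 and 9.52 with retapamulin. Its log2 fold changes against M5 were -0.35 and -0.38, both called by edgeR. Without a stated strand its reads and those of MRPL20 cannot be told apart.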
